A study of Mus musculus with 7 samples.

Results

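Neuregulins are signalling proteins that carry an epidermal growth factor (EGF) domain, and the ErbB receptors are the receptor tyrosine kinases that bind them. The 7 mouse genes of this ligand and receptor family were *Nrg1*, *Nrg2*, *Nrg3*, *Nrg4*, *Erbb2*, *Erbb3* and *Erbb4*, out of 55401 annotated genes, and 6 of them were among the 17621 genes with enough counts to test. The family was selected because the count of *Nrg3* was much lower in the mutant mice, so the difference in *Nrg3* is described here without a test and the other 6 genes carry the comparison.

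Messenger RNA bound to tagged ribosomes was sequenced from the cerebellum of 3 wild-type and 4 nm3888-/- mice at 3 weeks of age, with 1 mouse per library. Mice of both groups were Rpl22 fl/+; PCP2-Cre, a RiboTag design in which Cre recombinase under the Purkinje cell promoter PCP2 switches on a hemagglutinin-tagged RPL22, and the tag is then immunoprecipitated. The nm3888 mutation is an insertion of an endogenous retrovirus in an intron of *Rreb1*, which lies on chromosome 13 and encodes a zinc finger transcription factor, and the mutant mice were homozygous for it. The mutation arose on NOD/ShiLtJ and was later moved onto C57BL/6J by repeated backcrossing, and the RiboTag and Cre stocks were of C57BL/6 type (B6N.129 and B6.129). Which of the 2 mutant stocks was bred to them was not given in the sources used here. The libraries fell into a first series (wild type 1 and 2, nm3888-/- 1 and 2, aligned with Bowtie2) and a second series (wild type 3, nm3888-/- 3 and 4, aligned with STAR), as the paths in the file headers show. nm3888-/- 3 and 4 were male and the other 5 mice were female.

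The libraries held between 18023017 and 107937386 counted read pairs. Over the whole of *Rreb1* the CPM (counts scaled to a common library size by the trimmed mean of M values, TMM) were 17.7, 17.4 and 14.4 in wild type and 20.2, 19.1, 23.7 and 10.8 in the libraries labelled nm3888-/-, which overlap (log2 fold change 0.20 ± 0.23 SE, edgeR adjusted p = 0.640). This gene-wide count takes in exons before and after the insertion. It was not lower in the libraries labelled nm3888-/- and gave the labels no support, so every direction given here rests on the labels alone. The summed CPM of 9 Purkinje cell markers, led by *Itpr1* and *Car8*, was 34646 to 42447 in wild type and 31586 to 48250 in nm3888-/-, with 0 of 9 called. Transcripts of other cerebellar cells were also counted, and their values stand beside the receptors. In bulk samples of this kind, fewer cells of a type and less RNA per cell cannot be told apart.

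Neuregulins are made as membrane-bound precursors that are cut by proteases such as BACE1 and members of the ADAM family, which frees or exposes the EGF domain. ERBB3 and ERBB4 bind neuregulins, whereas ERBB2 binds no known ligand and acts as the shared partner of the others. NRG1 and NRG2 act on ERBB3 and ERBB4, and NRG3 and NRG4 act on ERBB4. In the nervous system the pathway is known for its part in myelination and in the formation of synapses onto interneurons.

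The 7 genes lie on different chromosomes of mm10, none of them on chromosome 13. *Nrg3* is on the minus strand of chromosome 14 (38368952 to 39473088), a span of 1104.1 kb that holds 6817 bases of exon. *Nrg1* (chromosome 8, 31814551 to 32884797, minus strand) and *Erbb4* (chromosome 1, 68032186 to 69108059, minus strand) are of similar extent, at 1070.2 and 1075.9 kb. *Nrg2* spans 179.7 kb and *Nrg4* (chromosome 9, 55220222 to 55326844, minus strand) 106.6 kb. *Erbb2* (chromosome 11, 98412470 to 98437716, plus strand) and *Erbb3* (chromosome 10, 128567523 to 128589652, minus strand) are compact, at 25.25 and 22.13 kb. GENCODE M21 lists 12 protein-coding transcripts for *Nrg1*, with 10 distinct transcript starts, against 3 and 3 for *Nrg3*, so 1 gene count can sum over several isoforms.

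The 250 bases upstream of the RefSeq start are shown for *Nrg3*, the neuregulin with the lower count, and for *Erbb4*, the receptor of NRG3, because their base composition differs. Both are on the minus strand of GRCm38.p6, the assembly of mm10, at chr14:39473089-39473338 and chr1:69108060-69108309, and are printed 5′ to 3′ in the direction of the gene, with each CpG in capitals.
Nrg3: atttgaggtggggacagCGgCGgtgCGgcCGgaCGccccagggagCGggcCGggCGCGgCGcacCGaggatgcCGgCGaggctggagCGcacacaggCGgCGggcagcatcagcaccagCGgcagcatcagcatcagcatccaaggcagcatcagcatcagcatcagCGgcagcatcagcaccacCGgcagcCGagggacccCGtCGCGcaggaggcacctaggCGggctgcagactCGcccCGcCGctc
Erbb4: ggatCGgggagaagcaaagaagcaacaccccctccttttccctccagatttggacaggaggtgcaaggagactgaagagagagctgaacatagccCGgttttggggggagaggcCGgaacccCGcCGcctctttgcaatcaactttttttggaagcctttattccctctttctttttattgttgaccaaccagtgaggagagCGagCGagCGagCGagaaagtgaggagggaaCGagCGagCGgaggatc
The *Nrg3* window held 27 CpG and was 72.4% G or C, and 91.4% of 32851 promoter windows of the same length held fewer CpG. The *Erbb4* window held 12 CpG at 54.0% G or C, above 66.5% of the windows. The median window held 6 CpG at 52.4% G or C. The RefSeq table held 4 of the 7 genes (*Nrg3*, *Nrg4*, *Erbb2* and *Erbb4*), and the windows of *Nrg4* and *Erbb2* held 10 and 16 CpG. The letters CAGATG were in none of the 4 windows on either strand, against 14.4% of all windows, and CCACCC was found 2 times in the *Erbb2* window and in none of the other 3, against 28.1% of all windows.

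In wild-type libraries *Nrg2* was the highest of the family per exonic length. On the scale of CPM per kb of exon, *Nrg2* was 8.52 ± 1.10 (SD, n = 3), above 69.1% of the tested genes. *Nrg3* followed at 2.27 ± 0.254, above 42.5% of the tested genes. *Nrg1* was at 0.532 ± 0.161, and its range of 0.356 to 0.673 overlapped the 0.274 to 0.473 of *Erbb4*. *Erbb4* (0.347 ± 0.110), *Erbb3* (0.235 ± 0.0608) and *Erbb2* (0.181 ± 0.0402) each overlapped the next in order. *Nrg4* was lowest, at 0.0254 ± 0.00552, with 3 to 19 counts per library over all 7 mice. In the libraries labelled nm3888-/- *Nrg2* was again highest at 7.94 ± 0.910 (SD, n = 4), and *Nrg3*, at 0.186 ± 0.0571, lay within the range of *Erbb2* (0.103 to 0.437) and overlapped that of *Nrg1* (0.232 to 0.370).

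**Figure D1:**
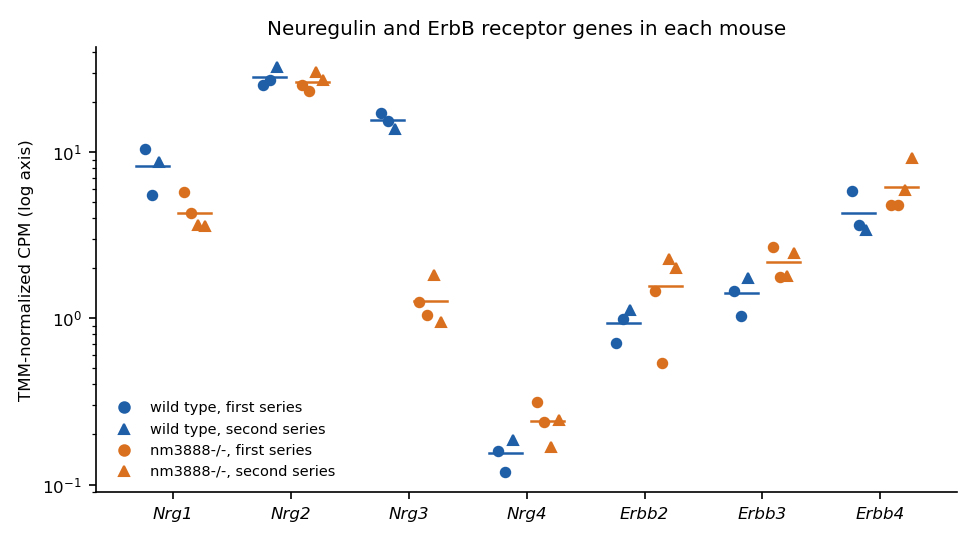
TMM-normalized CPM of each gene in each mouse, on a log axis. Blue marks wild type and orange nm3888-/-, the marker is a circle in series 1 and a triangle in series 2, and a bar gives each group's mean. *Nrg3* sits between 13.8 and 17.2 in wild type and between 0.952 and 1.82 in nm3888-/-, while the points of the other genes overlap between the groups or nearly meet.

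*Nrg3*, which encodes a neuregulin with an EGF domain selective for ERBB4, was at 17.2, 15.4 and 13.8 CPM in wild type. It was at 1.26, 1.04, 1.82 and 0.952 CPM in the libraries labelled nm3888-/-. Every mutant library was below every wild-type library, in both series. The wild-type mean was 12.2 times the mutant mean, a log2 fold change of -3.59 ± 0.24 (SE), with -3.84 in the first series and -3.29 in the second. The mutant libraries still held 24, 35, 108 and 43 *Nrg3* counts. *Nrg3os*, the antisense gene within the *Nrg3* span, had 0 counts in all 7 libraries, which allows up to 0.0278 to 0.166 CPM by library (3 counts, counting error only). The nearest tested genes on either side, *Gm5203*, *Ghitm*, *Eif1-ps1* and *Gm4817*, lay 533.1 to 1233.7 kb away with log2 fold changes of -0.24 to 0.31, and none was called.

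Of the 5 other genes tested, 1 was called (adjusted p under 0.05, edgeR quasi-likelihood test with Benjamini-Hochberg adjustment over all 17621 genes), and it was lower. Over all tested genes 8.54% were called, 5.95% lower and 2.58% higher. *Nrg1*, the neuregulin best known for Schwann cell myelination and synapse development, was the called gene. It was at 10.4, 5.50 and 8.74 CPM in wild type and at 5.71, 4.29, 3.66 and 3.59 CPM in the libraries labelled nm3888-/-. The groups overlapped, since wild type 2 lay below nm3888-/- 1. The log2 fold change was -0.93 ± 0.24 (95% interval -1.49 to -0.38, adjusted p = 0.0489). Within series *Nrg1* differed by -0.68 ± 0.32 (edgeR adjusted p = 0.340) in the first and -1.27 ± 0.30 (adjusted p = 0.00977) in the second, which holds 1 wild-type mouse, so that this test assumes it to vary like the mutant mice. With the replicate number as a block, which leaves nm3888-/- 4 without a partner and so without weight, the change was -0.84 (edgeR adjusted p = 0.0805). The call was also lost on leaving out 1 library: -0.76 without wild type 1 (edgeR adjusted p = 0.174), -0.68 without wild type 3 (0.348), -0.90 without nm3888-/- 2 (0.131), -0.89 without nm3888-/- 3 (0.105) and -0.88 without nm3888-/- 4 (0.103).

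*Nrg2* (chromosome 18, 36017652 to 36197380, minus strand), a close relative of *Nrg1*, was at 25.2, 27.2 and 32.3 CPM in wild type. In the libraries labelled nm3888-/- it was at 25.1, 23.1, 30.2 and 26.9 CPM. The groups overlapped almost throughout. The log2 fold change was -0.15 ± 0.10 (95% interval -0.37 to 0.08, edgeR adjusted p = 0.412), so a fall of over 0.37 or a rise of over 0.08 lay outside the interval. *Nrg4*, a ligand of ERBB4 known from adipose tissue, had 4, 3 and 19 counts in wild type and 6, 8, 10 and 11 in nm3888-/-, too few to pass the filter. Fitted with no filter, it gave 0.47 ± 0.48 (95% interval -0.52 to 1.47, edgeR adjusted p = 0.718), and a difference was not detectable at this depth.

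**Figure D2:**
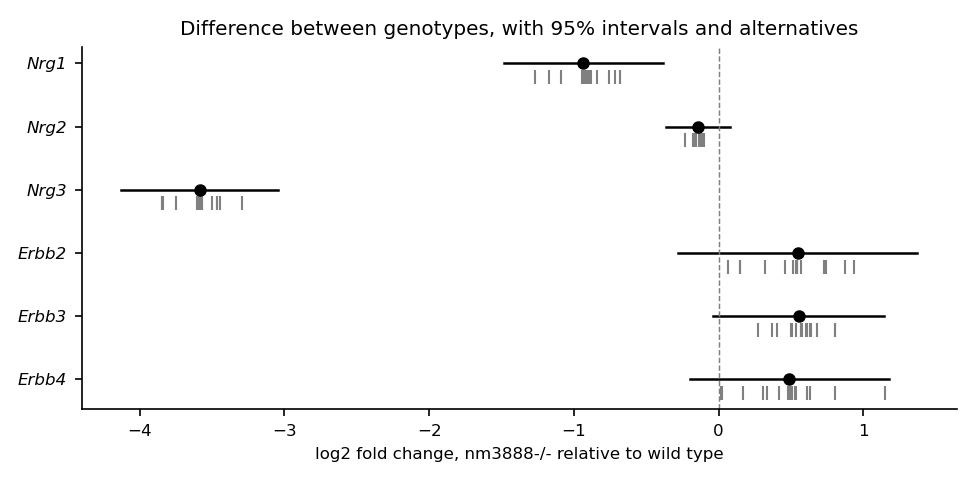
Log2 fold change of each tested gene in nm3888-/- relative to wild type, as a black point with its 95% interval, and grey ticks for the 16 alternative fits. *Nrg3*, the gene the family was selected on, lies at -3.59, and its interval is descriptive and not a test. Among the other genes shown, only the interval of *Nrg1* (-1.49 to -0.38) does not include 0. The ticks of the 3 receptors are all above 0.

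The make-up of the neuregulin transcripts, per exonic length, differed with *Nrg3*. The sum over the 4 neuregulins was 11.4 ± 0.878 CPM per kb (SD, n = 3) in wild type and 8.45 ± 0.918 (n = 4) in nm3888-/-. *Nrg3* made up 23.3%, 20.9% and 16.4% of that sum in the wild-type mice. It made up 2.26%, 2.06%, 2.77% and 1.64% in the mutant mice. *Nrg2* therefore took 74.9% ± 4.36 of the sum in wild type and 94.0% ± 1.11 in nm3888-/-. The share of *Nrg1* was 4.69% ± 1.47 and 3.36% ± 0.953. These sums hold the gene that selected the family and were not tested.

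**Figure D3:**
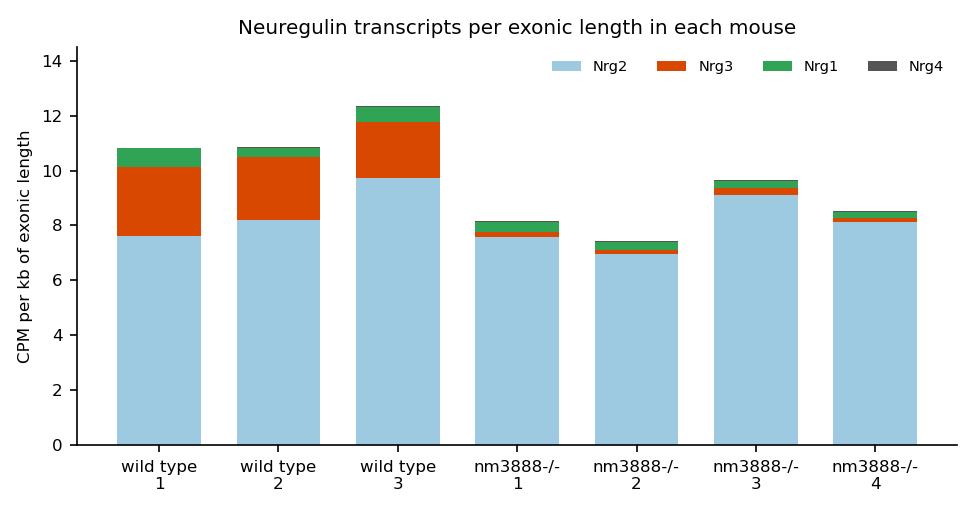
Summed CPM per kb of exonic length of the 4 neuregulin genes in each mouse, with 1 stacked bar per library. *Nrg2* makes up most of each bar, and *Nrg3* is 16.4% to 23.3% of the wild-type bars and 1.64% to 2.77% of the nm3888-/- bars.

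None of the 3 receptor genes was called, and all 3 had a positive log2 fold change, of 0.49 to 0.55. Of all 17621 tested genes, 9411 had a positive log2 fold change. *Erbb4*, the receptor of NRG3, was at 5.85, 3.64 and 3.39 CPM in wild type and at 4.82, 4.80, 5.93 and 9.14 CPM in the libraries labelled nm3888-/-. Wild type 1 lay within the mutant range. The log2 fold change was 0.49 ± 0.30 (95% interval -0.20 to 1.18, edgeR adjusted p = 0.374). It was 0.02 ± 0.26 in the first series (edgeR adjusted p = 0.978) and 1.15 ± 0.34 in the second (adjusted p = 0.0411), where there was 1 wild-type mouse, at 3.39 CPM. The difference between the series was 1.13 ± 0.47 (interaction, edgeR adjusted p = 0.850). The interaction was called for 0 of the 6 tested genes of the family and 0.0795% of all tested genes, and 1 of the 6, *Erbb4*, had an unadjusted p under 0.05.

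*Erbb3*, a receptor whose own kinase is weak and which signals through its partner, was at 1.46, 1.03 and 1.76 CPM in wild type. It was at 2.67, 1.76, 1.79 and 2.46 CPM in the libraries labelled nm3888-/-. All 4 mutant libraries were above the wild-type libraries, but nm3888-/- 2 and wild type 3 were equal to 3 digits. Of all tested genes, 5.16% had every mutant library above every wild-type library and 8.92% the reverse. The log2 fold change of *Erbb3* was 0.55 ± 0.26 (95% interval -0.04 to 1.14, edgeR adjusted p = 0.243), with 0.80 in the first series and 0.27 in the second.

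*Erbb2*, the partner receptor without a ligand of its own, was at 0.711, 0.989 and 1.12 CPM in wild type. In the libraries labelled nm3888-/- it was at 1.47, 0.536, 2.27 and 2.01 CPM, on 18 to 135 counts per library. nm3888-/- 2 was the lowest of the 7 and the other 3 mutant libraries were the highest. The log2 fold change was 0.55 ± 0.36 (95% interval -0.28 to 1.37, edgeR adjusted p = 0.406), with 0.15 in the first series and 0.94 in the second. *Mien1* overlaps *Erbb2* on the other strand, and the counting used strand.

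Markers of other cells were higher in some of the same libraries. The counts of markers called stand beside 8.54% of all tested genes called, 2.58% higher and 5.95% lower. The summed CPM of 13 oligodendrocyte lineage markers, with *Mbp* the highest, was 508 to 740 in wild type and 690 to 1242 in nm3888-/-. Of the 13, 2 were called, both higher, and the median log2 fold change was 0.54. The log2 fold change was positive in 12 of 13, and *Olig1* was the negative one (-0.53 ± 0.18, edgeR adjusted p = 0.109). The 11 markers of Bergmann glia and astrocytes (led by *Gdf10* and *Hopx*) summed to 457 to 533 and 419 to 667, with 2 called higher and 1 lower. Their median log2 fold change was 0.61 with 10 of 11 positive, and *Hopx*, which makes up much of the sum, was the negative one (-0.82 ± 0.17, edgeR adjusted p = 0.0207). nm3888-/- 2, the mutant library with the least *Erbb2*, was also the lowest of the 7 in that sum, but not in the other sums. In log2 over the wild-type mean, its granule cell, oligodendrocyte and microglia sums were 0.34, 0.14 and 0.17. Its endothelial and unipolar brush cell sums were 0.31 and 0.86, and its interneuron sum was -0.50. The 6 granule cell markers (*Fat2* and *Cbln3* highest) summed to 324 to 393 and 458 to 863, with 0 called at a median of 0.54. The 6 interneuron markers (*Prkcd* and *Kit* highest) summed to 85.3 to 193 and 89.7 to 136, with 0 called at a median of 0.29. The sums were 27.8 to 49.9 and 46.1 to 64.8 for 8 endothelial cell and pericyte markers (*Rgs5*, *Flt1*), 3.52 to 6.81 and 6.02 to 12.6 for 8 microglia markers (*Csf1r*, *Cx3cr1*), and 1.75 to 3.32 and 3.08 to 9.87 for the 2 unipolar brush cell markers *Eomes* and *Lmx1a*, with 0 called in each list. All 6 tested microglia markers were positive in log2 fold change (median 0.68), as were all 8 endothelial and pericyte markers (median 0.20). These counts of positive values stand beside 9411 of all 17621 tested genes. No marker was at 0 in all libraries. The part of these cells in the receptor values was not tested.

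**Figure D4:**
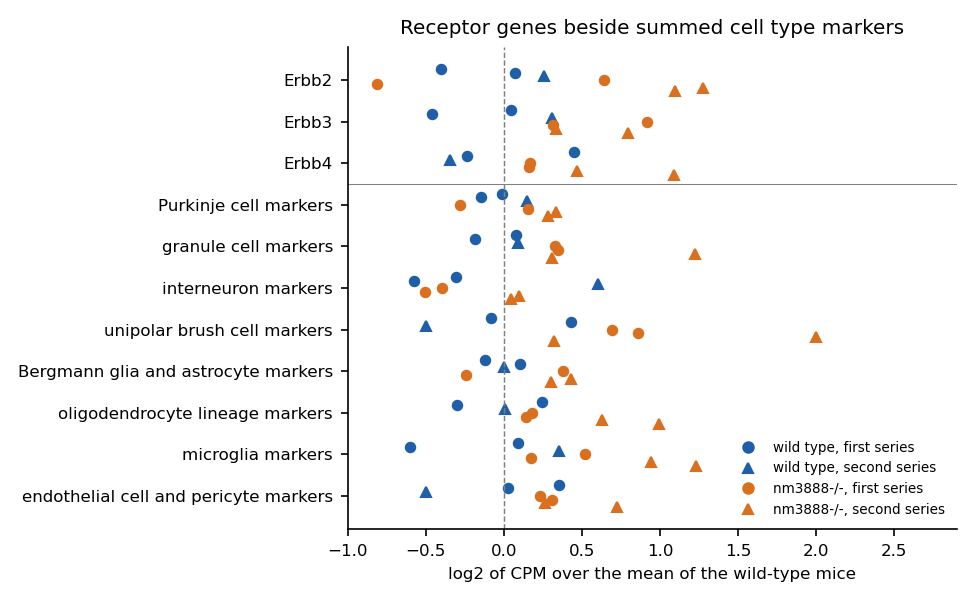
Log2 of the CPM of each receptor gene (above the line) and of each summed marker list (below it) over the mean of the wild-type mice. Blue marks wild type and orange nm3888-/-, and the marker is a circle in series 1 and a triangle in series 2. *Erbb2* in nm3888-/- 2 is the lowest receptor point, and nm3888-/- 3 and 4 are the highest points of *Erbb2* and of the oligodendrocyte sum.

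Around the ligands and receptors, 62 of 66 listed genes of the ErbB pathway could be tested, and 11 were called, 4 higher and 7 lower. This is 17.7% of the 62, beside 8.54% of all tested genes. The list was chosen with earlier results of these data known, so its share can reflect that choice and was not tested. The list's median log2 fold change was -0.02, beside 0.03 for all tested genes. With the replicate block 4 of the 62 were called (*Adam19*, *Grb7*, *Dlg4* and *Gab1*), which is 6.45% beside 4.61% of all genes tested in that fit. Leaving out 1 library gave 5 without wild type 1 (8.06% beside 4.84% of all tested genes), 6 without wild type 2 (9.68% beside 4.08%), 4 without wild type 3 (6.45% beside 3.35%) and 6 without nm3888-/- 2 (9.68% beside 5.25%). With the block the share of the list was near that of all genes.

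Among 8 other EGF-family ligands and their receptor EGFR, 4 were tested and 1 was called (25% of the 4, beside 8.54% of all tested genes). *Tgfa*, which encodes an EGFR ligand, was at 1.66, 1.62 and 1.57 CPM in wild type and at 2.67, 2.27, 3.30 and 3.34 CPM in nm3888-/-. The mutant libraries were all higher (log2 fold change 0.80 ± 0.20, edgeR adjusted p = 0.0419), and this call was kept in 4 of 16 alternatives and lost with the replicate block (edgeR adjusted p = 0.115). *Egfr*, which pairs with ERBB2, gave 0.51 ± 0.37 (edgeR adjusted p = 0.451). None of the 3 neuregulin-like proteins with an EGF domain (*Cspg5*, *Tmeff1* and *Tmeff2*) was called.

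Of the 12 genes for neuregulin-cleaving proteases and gamma-secretase, 3 were called lower and 1 higher (33.3% of the 12, beside 8.54% of all tested genes). *Adam19*, a metalloprotease that cuts neuregulin precursors, was at 39.6, 55.4 and 45.2 CPM in wild type. It was at 13.6, 12.1, 11.5 and 10.5 CPM in the libraries labelled nm3888-/-. The groups were far apart, and the wild-type mean was 3.92 times the mutant mean (log2 fold change -1.95 ± 0.13, edgeR adjusted p = 7.66e-05), a call kept in 16 of 16 alternatives. *Bace1*, the beta-secretase that cuts NRG1 and NRG3, was at 199, 206 and 179 CPM in wild type and at 145, 140, 126 and 121 CPM in nm3888-/-. The groups did not overlap, and the change was smaller (-0.52 ± 0.08, edgeR adjusted p = 0.00550, kept in 10 of 16 and 0.0523 with the replicate block). The gamma-secretase subunits *Aph1b* (-0.39 ± 0.09, edgeR adjusted p = 0.0368, kept in 4 of 16 and 0.142 with the block) and *Psen2* (0.52 ± 0.12, adjusted p = 0.0332, kept in 6 of 16 and 0.130 with the block) differed in opposite directions. *Adam10* and *Adam17*, the other ADAM proteases listed, had positive values of 0.41 and 0.54 and were not called.

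Downstream of the receptors, 4 of 16 genes for adaptors and the PI3K-AKT arm were called, 3 lower and 1 higher (25% of the 16, beside 8.54% of all tested genes). *Grb7*, an adaptor that binds phosphorylated ErbB receptors, was at 4.43, 4.75 and 11.2 CPM in wild type and at 1.68, 1.49, 2.73 and 2.48 CPM in nm3888-/-. All mutant libraries were below all wild-type libraries, and in both groups the second series was higher (log2 fold change -1.80 ± 0.18, edgeR adjusted p = 0.000537, kept in 14 of 16). *Grb7* starts 8.68 kb after the end of *Erbb2*. It was the only one called among 28 tested genes, the 2 nearest on each side of each of the 7 genes. That count is not above the 8.54% of all tested genes called. The adaptor *Shc2* was lower (-0.57 ± 0.11, edgeR adjusted p = 0.0175, kept in 9 of 16 and 0.0651 with the block), at 33.9 to 41.1 CPM in wild type and 22.2 to 28.7 in nm3888-/-. *Gab1*, a docking protein for PI3K, was higher (0.95 ± 0.18, edgeR adjusted p = 0.0145, kept in 10 of 16), at 5.41 to 7.32 CPM in wild type and 9.17 to 15.6 in nm3888-/-.

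In the RAS-ERK and STAT arm 1 of 14 genes was called (7.14%, near the 8.54% of all tested genes). This was *Stat5b*, a transcription factor of the STAT family, with 33.2 to 36.8 CPM in wild type and 46.8 to 52.8 in nm3888-/- (log2 fold change 0.48 ± 0.09, edgeR adjusted p = 0.0162, kept in 8 of 16 and 0.0742 with the block). Of 13 genes that restrain, degrade or anchor the receptors, 1 was called (7.69%, again near the share of all tested genes). *Dlg4*, which encodes PSD-95, a postsynaptic scaffold that binds ERBB4, was at 239, 220 and 389 CPM in wild type. It was at 103, 92.0, 184 and 158 CPM in the libraries labelled nm3888-/-. The second series was higher than the first in both groups, and the mutant libraries were lower in each (log2 fold change -1.22 ± 0.10, edgeR adjusted p = 0.000163, kept in 14 of 16).

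**Figure D5:**
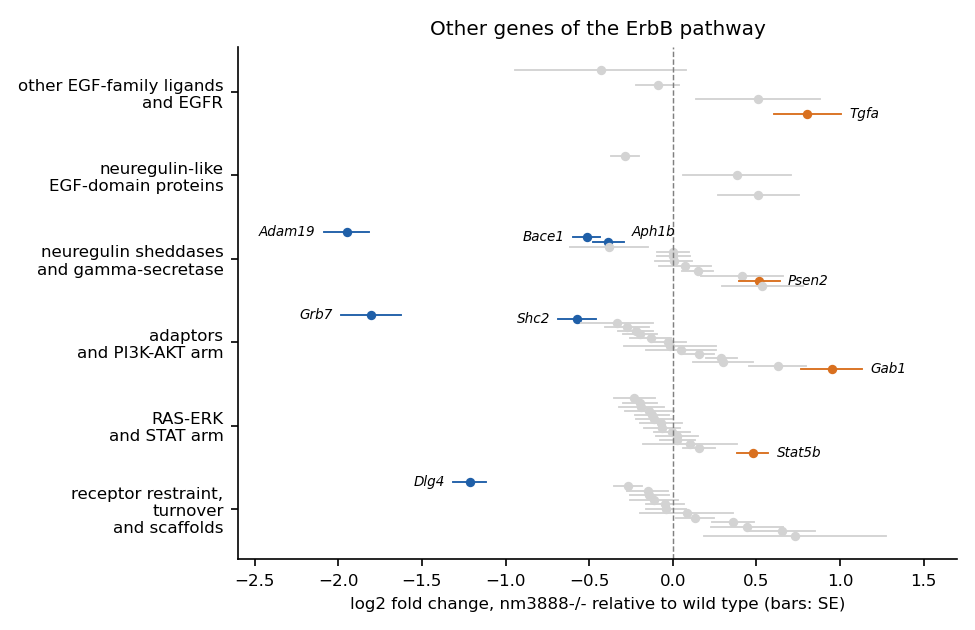
Log2 fold change in nm3888-/- relative to wild type of the tested pathway genes by role, as points with SE bars (1 gene is not shown), in blue where called lower, orange where called higher and grey where not called. *Adam19* (-1.95), *Grb7* (-1.80) and *Dlg4* (-1.22) lie apart on the left, and *Gab1* (0.95) and *Tgfa* (0.80) are the called genes farthest to the right.

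Among 10700 tested genes with a mean log2 CPM over 2, the 5 whose log2 CPM followed that of *Nrg3* most closely over the 7 libraries were *Gm42372* (Pearson r = 0.997), *Syt11* (0.997), *Prrt3* (0.997), *Tmem132c* (0.996) and *Rit2* (0.995). Genes chosen for likeness to *Nrg3* are lower in the mutant libraries by that choice, so their direction is no separate result. Their log2 fold changes were -3.45, -1.79, -3.78, -1.04 and -2.56, and the points share library, depth and genotype. *Prrt3* was at 108, 118 and 111 CPM in wild type and at 7.96, 7.75, 10.4 and 6.84 in nm3888-/-. *Syt11*, a synaptotagmin gene, was the highest of the 5, at 836, 830 and 733 CPM in wild type and 235, 202, 264 and 225 in nm3888-/-. By Spearman correlation 0 of these 5 were among the closest 5. Leaving out 1 library kept between 1 (without nm3888-/- 1 or without nm3888-/- 3) and 4 of them (without wild type 2 or without nm3888-/- 4).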

How the data were processed

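RiboTag RNA from 7 mice was analysed. The authors aligned reads to mm10 and counted read pairs per GENCODE gene with featureCounts 2.0.1, both ends mapped and reverse-stranded per the file headers, and deposited raw counts for 55401 genes per library, of which 55141 were matched to a symbol. The methods name Bowtie2, whereas the headers point to Bowtie2 in the first series and STAR in the second, so aligner and library series cannot be told apart. Groups came from the labels. Each mouse was a separate library.

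Counts were fitted with edgeR 4.0.16 (R 4.3.3) after filterByExpr and TMM scaling, with a quasi-likelihood test of genotype and the library series as a term, since the study's methods name a batch covariate without assigning libraries to it. A gene was called at an adjusted p under 0.05 over all 17621 tested genes. Levels between genes were compared as CPM per kb of exonic length. Depth of 18023017 to 107937386 counts limits the precision of genes with few counts.

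The members and lists were chosen with earlier results of these data known. Named genes were the 7 members and *Nrg3os*, up to 4 called genes per direction in each pathway role and *Egfr*, each marker list's 2 highest genes, *Rreb1*, and the 5 genes most like *Nrg3*. Pathway genes named as not called, and genes neighbouring or overlapping a member, were added after their values were seen. This rule also picks 2 genes that are not reported here.

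Same-numbered libraries deviated together from their group means (r = 0.914, 0.946 and 0.960 over genes), so a fit with the replicate number as a block was an alternative, in which nm3888-/- 4 has no partner. Other pairs of the same series correlated as strongly (0.926 for wild type 1 and nm3888-/- 2), and pairs across series were negative (-0.964 to -0.920). The other alternatives were RLE scaling, no filter, DESeq2 1.42.0 (adjusted p of NA kept as NA), no batch term, sex in place of series, each series alone and leaving out each library. DESeq2 was first run with its default filtering alpha of 0.1. That setting was changed to the call threshold of 0.05 after its count had been compared with an earlier analysis of these data, and both are kept.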

Additional observations from a re-analysis of the deposited data

How the results depend on the processing

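The alternatives changed 1 choice each, except that the DESeq2 fits replaced the scaling, the filter and the test together. The log2 fold change of *Nrg3*, which selected the family, ranged from -3.84 to -3.29. *Nrg2* kept its direction and its side of the threshold in 16 of 16 alternatives (-0.23 to -0.10), *Erbb2* in 16 (0.07 to 0.94), *Erbb3* in 16 (0.27 to 0.81) and *Erbb4* in 15 (0.02 to 1.15), the exception being the second series alone. *Nrg1* kept its direction in 16 and its call in 6, of which 1 was the second series alone with its 1 wild-type mouse (-1.27 to -0.68, adjusted p 0.00427 to 0.593). No log2 fold change was reversed.

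The count of other members called, 1 in the report, was 0 with RLE scaling, with no batch term, with sex in place of the series, with the replicate block and in the first series alone, 2 in the second series alone (*Nrg1* and *Erbb4*), and 0 to 1 when 1 library was left out. The count of pathway genes called, 11 in the report, was 12 with RLE scaling and 12 with no filter. It was 1 with no batch term, 1 with sex, 4 with the replicate block, 4 in the first series alone and 4 to 9 when 1 library was left out. Over all tested genes the 1504 called became 309 with no batch term, 102 with sex, 812 with the replicate block, 679 in the first series alone and 599 to 1425 when 1 library was left out. DESeq2 called 2048 genes, and 2082 with its default filtering alpha of 0.1, the setting first run and listed as an alternative after seeing the data. Both settings called 1 other member, *Nrg1*, and 13 pathway genes. The interaction with series was called for 0 members in every fit that could be made, and leaving out wild type 3 leaves no such fit. The cause of these differences was not tested.

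The male mice were both nm3888-/- and both in the second series, so sex cannot be told apart from genotype within it. The second series held 1 wild-type mouse. *Nrg4*, *Erbb2* and *Erbb3* rested on few counts. Intervals cover the spread between mice as modelled, and the levels are ribosome-bound transcripts, not protein.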
